A study of Homo sapiens with 6 samples.

Results

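The factors that assemble the large ribosomal subunit were followed in HCT116, a line of human colorectal carcinoma cells, after siRNA against CDK4 and CDK6. The set was 47 genes written from general knowledge of the pathway. A probe set is a group of probes on an Affymetrix array that gives 1 value and can read more than 1 transcript. A gene was measured where the platform annotation names it on a probe set, and the brightest such probe set by its mean stood for the gene. That gave 44 of the 47 genes, among 21357 gene symbols in all. No probe set in the annotation used here names EBNA1BP2, DDX18 or GNL3, and they were not analysed here. BOP1 and PPAN rest on probe sets that name another transcript as well, the microRNA MIR7112 for BOP1 and the readthrough transcript PPAN-P2RY11 for PPAN, so their values cannot be assigned to 1 gene.

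The CDK4/6 siRNA group (3 arrays) received a pool of siRNAs against CDK4 and a single siRNA against CDK6, each at 30 nM. The control siRNA group (3 arrays) received a non-targeting siRNA pool and a negative control siRNA, each at 30 nM, with the same lipid reagent. RNA was taken 96 h after transfection. Arrays within a group are named as biological replicates, with no word on whether the cultures were started separately, so a p-value covers no more than the variation among these 6 arrays, which may be technical.

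Expression is given as log2 RMA values. The median of an array was 5.36 to 5.39, and arrays correlated over all genes at 0.998 with the others of their group and at 0.991 to 0.994 with the other group. Both siRNA targets were lower in the CDK4/6 siRNA arrays, CDK6 by a log2 change of -1.56 and CDK4 by -0.69, and the groups did not overlap for either. The epithelial markers EPCAM, CDH1, KRT8, KRT18 and KRT19 were all bright, with means of 10.4 to 13.5 in CDK4/6 siRNA arrays and 11.0 to 13.2 in control arrays. KRT8 (0.59) and KRT18 (0.51) rose, CDH1 fell (-0.54), and the part of this in the results below was not tested. Of 7 measured markers of other cell types 0 were called, and the brightest, PECAM1, averaged 6.23 in CDK4/6 siRNA arrays and 6.29 in control arrays. In bulk RNA, fewer cells of a kind and less RNA per cell cannot be told apart. RMA gives all arrays 1 common distribution, so a change common to most genes is removed from each value below.

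The large subunit is built in the nucleolus on a long precursor RNA made by RNA polymerase I. Assembly factors fold the precursor, hold back premature contacts and let ribosomal proteins and the 5S particle dock. RNA helicases, GTPases and AAA ATPases then drive steps that cannot be undone and strip factors off, until the particle is exported and matures in the cytoplasm. Genes for these factors are well known as targets of MYC, which binds DNA with its partner MAX at the E-box CACGTG, and the series title names MYC in the response to CDK4/6 inhibition.

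Promoter sequences from RefSeq (build GRCh38.p14, from 250 bases before to 50 after each start site) were matched by symbol for 37 of the 44 genes. BOP1, RPF2, RRP1B, RRS1, RSL1D1, TCOF1 and URB2 had no entry. CACGTG, which reads the same on either strand, stood in 11 of the 43 promoters of these 37 genes (25.6%). It stood in 7.26% of all 35116 promoters, in 11.7% of those of called-higher genes outside the set and in 8.15% of those of called-lower genes. Median GC content was 65.3% in the assembly factors' promoters and 64.3% in those of called-higher genes outside the set. It was 65% in those of called-lower genes and 58.7% in all promoters. Of the 12 copies of CACGTG in the assembly factors' promoters, 7 began at or after the start site (58.3%), against 9.99% of the 2102 copies in promoters of the other genes tested. The share was 14.2% in called-higher genes outside the set and 6.15% in called-lower genes. A match is a stretch of letters and not a measured binding site. The lines below show the 7 genes with a copy after the start site, with CACGTG in capitals, 5′ to 3′ on the gene's strand, each with its position and the distance of the first capital from the start site, counted as +1.
GNL2 (chr1:37595917-37595946, minus strand, +4): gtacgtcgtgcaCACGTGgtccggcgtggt
NLE1 (chr17:35142274-35142303, minus strand, +13): ctctttctcctcCACGTGgggacgcaggat
PES1 (chr22:30591880-30591909, minus strand, +14): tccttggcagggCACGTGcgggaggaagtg
MRTO4 (chr1:19251807-19251836, plus strand, +15): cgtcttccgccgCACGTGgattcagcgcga
NOC3L (chr10:94362903-94362932, minus strand, +20): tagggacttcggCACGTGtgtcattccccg
MDN1 (chr6:89819750-89819779, minus strand, +28): cgtgtgctcaccCACGTGtggtgcccctct
NOP2 (chr12:6568242-6568268, minus strand, +36): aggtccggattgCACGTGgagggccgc

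The other copies lay upstream of the start site, and MDN1 had 1 on each side. They are shown the same way.
DDX21 (chr10:68956604-68956633, plus strand, -31): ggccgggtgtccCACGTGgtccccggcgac
DDX54 (chr12:113185522-113185551, minus strand, -61): ctcagcggaggtCACGTGgtcaccgcacct
LYAR (chr4:4290068-4290097, minus strand, -64): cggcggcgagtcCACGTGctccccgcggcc
MDN1 (chr6:89819932-89819961, minus strand, -155): tttctgtcccacCACGTGctgtgttcgcga
SDAD1 (chr4:75991156-75991185, minus strand, -228): tacatgctaacaCACGTGaaaaaatttaca

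The promoter of MRTO4, which keeps a place on the particle for the stalk protein P0, shows the position of the motif in full. It spans chr1:19251555-19251854 on the plus strand, with CACGTG in capitals.
MRTO4: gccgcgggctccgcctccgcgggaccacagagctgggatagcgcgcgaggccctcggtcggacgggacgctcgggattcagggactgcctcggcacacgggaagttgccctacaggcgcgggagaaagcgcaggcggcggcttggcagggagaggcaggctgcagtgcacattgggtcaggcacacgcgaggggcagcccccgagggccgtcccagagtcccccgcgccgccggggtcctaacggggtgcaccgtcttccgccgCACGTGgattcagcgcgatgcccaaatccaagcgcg

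GPATCH4, the assembly factor with the largest rise, had no CACGTG in its window, which spans chr1:156601430-156601729 on the minus strand.
GPATCH4: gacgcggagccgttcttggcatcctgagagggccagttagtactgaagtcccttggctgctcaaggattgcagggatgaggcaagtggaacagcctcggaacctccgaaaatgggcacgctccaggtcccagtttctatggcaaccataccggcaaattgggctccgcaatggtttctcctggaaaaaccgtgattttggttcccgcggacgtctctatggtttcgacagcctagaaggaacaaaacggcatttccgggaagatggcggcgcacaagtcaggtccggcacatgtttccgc

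The letters CCGGAAG on either strand, the core bound by ETS factors, stood in 16 of the 43 promoters (37.2%). All promoters held it at 10.3%, called-higher genes outside the set at 22.2% and called-lower genes at 11.6%. The E2F letters TTTGGCGC or TTTCGCGC on either strand stood in 1 of the 43 (2.33%), that of NSA2, against 1.15% of all promoters and 2.62% of called-higher genes outside the set. CACGTG and CCGGAAG were both present in 2 genes and both missing from these windows in 12 of the 37. Among the 12 genes with the largest changes, RRS1, URB2 and BOP1 had no promoter entry, and MRTO4, NOP2 and LYAR held CACGTG. GPATCH4, FTSJ3 and URB1 had an entry and held neither CACGTG nor CCGGAAG. NOP16, RRP15 and NIP7 held CCGGAAG or its complement CTTCCGG, shown in capitals. In NOP16 the motif is read on both strands at overlapping positions, of which the plain one is shown.
NOP16 (chr5:176388597-176388626, minus strand, -16): tgtgcacgccttCCGGAAGgagtttgttac
RRP15 (chr1:218285289-218285318, plus strand, +9): tgtcaggtgacgCTTCCGGcgcagaaaaat
NIP7 (chr16:69339565-69339594, plus strand, -195): aacgtcacttccCTTCCGGaccacaagggg

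Assembly factor genes were higher in CDK4/6 siRNA cells almost throughout. Of 44 measured, 38 rose at a limma adjusted p under 0.05 and 0 fell, where 14.2% of the 20284 probe sets tested were called higher and 13% lower. Those 20284 include dim genes, which the 44 do not. With genes below the 40th percentile of mean level left out, 39 of the 44 rose and 0 fell. There 26% of the 12091 probe sets kept were called higher. No assembly factor was lower at an unadjusted p under 0.05 either, where 3623 of the 20284 probe sets were. Without variance moderation 34 rose and 0 fell, where 11% of all probe sets were called higher. The median log2 fold change over the 44 was 0.46, or 1.37-fold, against -0.0010 over all probe sets tested. The changes were moderate, since 14 of the 44 rose at least 1.5-fold, where 2.36% of all probe sets did, and GPATCH4 and RRS1 rose at least 2-fold. In 40 of the 44 every CDK4/6 siRNA array lay above every control array, against 20.8% of all probe sets, and in 0 every one lay below (20.3% of all probe sets). At an adjusted p under 0.01, 34 of the 44 rose, against 9.3% of all probe sets. Standard errors ran from 0.050 to 0.12 on the log2 scale.

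**Figure D1:**
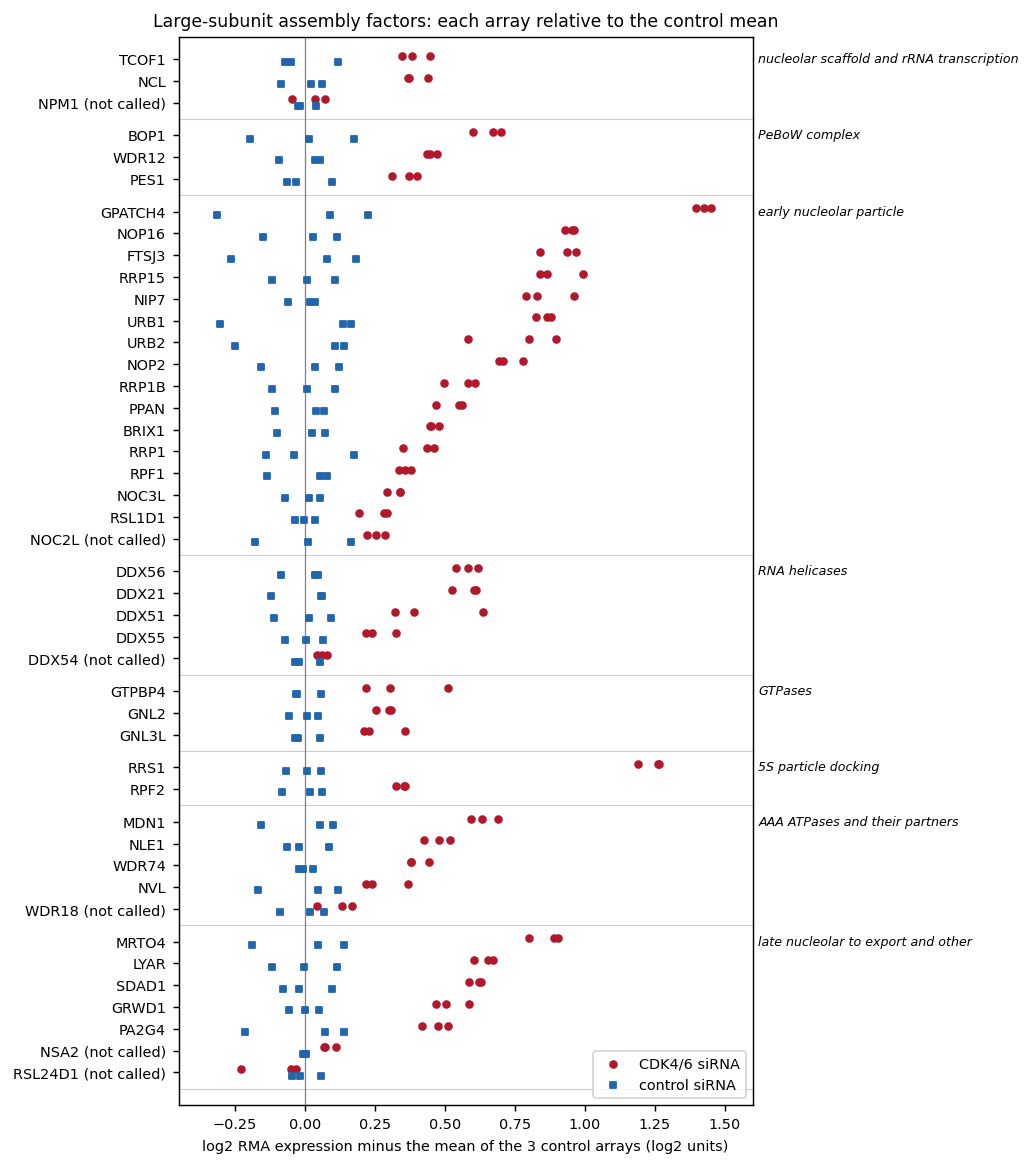
Each point is 1 array's log2 RMA expression of an assembly factor minus the mean of the 3 control arrays (log2 units), with CDK4/6 siRNA arrays as circles and control siRNA arrays as squares, and genes grouped by role. The CDK4/6 siRNA arrays lie to the right of all control arrays in 40 of 44 genes, and the 6 genes marked as not called did not pass the test.

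Scaling the arrays to 18 probe sets of the spike-in RNAs of the hybridisation mix raised every log2 fold change by the same amount. It was applied to values already processed by RMA. The higher counts below follow from that shift and do not measure a rise common to most genes. Their mean was 10.15 ± 0.054 in CDK4/6 siRNA arrays and 10.25 ± 0.017 in control arrays (SD, n = 3 each, two-sided exact permutation p = 0.1, the smallest that 3 against 3 can give). With that scaling the median of all probe sets moved to 0.11, and 78.1% of called probe sets were higher, against 52.2% as deposited. Of the assembly factors 40 then rose and 0 fell, with a median of 0.57, where 24.2% of all probe sets were called higher.

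Control replicate 3 gave the lowest value of the 3 control arrays in 33 of the 44 genes (75%), where it did so in 40.2% of all probe sets tested. It did so too in 43 of 54 small subunit assembly factors (79.6%) and in 21 of 35 other pre-60S factors (60%). Its part in the result was measured by leaving it out: 37 genes then rose, with a median of 0.40, where 11.5% of all probe sets were called higher. The spread was larger among control arrays than among CDK4/6 siRNA arrays in 34 of the 44 genes (77.3%), against 51.9% of all probe sets. The mean over the 44 genes was 9.57, 9.56 and 9.57 in CDK4/6 siRNA replicates 1 to 3, against 9.12, 9.09 and 8.97 in control replicates 1 to 3.

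Of the nucleolar scaffold proteins and the factor that supports RNA polymerase I, 2 of 3 rose. Among all probe sets tested 14.2% were called higher, and 26% with dim genes left out. NCL encodes nucleolin, an abundant RNA-binding protein of the nucleolus. It rose 1.31-fold, at 12.67, 12.68 and 12.74 in CDK4/6 siRNA arrays, against 12.33, 12.36 and 12.22 in control arrays (limma adjusted p = 0.00144). TCOF1 encodes treacle, which recruits the polymerase to ribosomal DNA, and rose 1.31-fold as well. NPM1, nucleophosmin, the protein that organises the outer granular layer of the nucleolus, had 13.998, 14.12 and 14.08 in CDK4/6 siRNA arrays, against 14.03, 14.02 and 14.08 in control arrays. Those groups overlap. Its log2 fold change was 0.020, with a 95% interval of -0.11 to 0.15 and a limma adjusted p of 0.851. Its 2 further probe sets gave 0.061 and -0.057. NPM1 read close to the highest values on these arrays, 14.71 to 14.76, and whether changes are damped there was not tested. The RefSeq gene table also holds 50 pseudogenes with its name, so its signal cannot be assigned to 1 locus.

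All 3 subunits of the PeBoW complex rose, where 14.2% of all probe sets tested were called higher. This complex of PES1, BOP1 and WDR12 is needed to remove a spacer from the precursor RNA. BOP1 had 9.29, 9.27 and 9.20 in CDK4/6 siRNA arrays, against 8.77, 8.61 and 8.40 in control arrays, a rise of 0.66 on the log2 scale (SE 0.090, limma adjusted p = 0.000889). A second BOP1 probe set with the same 2 names gave 0.28 and missed the threshold (limma adjusted p = 0.0551 over all probe sets). WDR12 rose by 0.45 (SE 0.059) and PES1 by 0.36 (SE 0.062). The groups did not overlap for any of the 3. A dim further probe set of PES1 gave -0.088, and with the mean of both probe sets PES1 lost its call at 0.14 (limma adjusted p = 0.105).

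The group placed with the early nucleolar particle, the largest of the role groups, held the widest range and most of the large changes. Of its 16 measured factors 15 rose and 0 fell, with a median of 0.65, where 14.2% of all probe sets were called higher and 13% lower. GPATCH4 encodes a G-patch protein of the nucleolus. Its values were 9.07, 9.01 and 9.04 in CDK4/6 siRNA arrays, against 7.84, 7.71 and 7.30 in control arrays. It rose 2.68-fold (log2 1.42, SE 0.12, limma adjusted p = 0.000118), and the lowest CDK4/6 siRNA array lay 1.17 above the highest control array. A second GPATCH4 probe set rose by 1.29, and 3 dim ones gave 0.13, 0.080 and -0.073.

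NOP16, a nucleolar protein of the early particle, was even across the CDK4/6 siRNA arrays at 11.21, 11.18 and 11.21, against 10.37, 10.28 and 10.10 in control arrays. It rose 1.93-fold (SE 0.073 on the log2 scale, limma adjusted p = 8.93e-05). FTSJ3, a methyltransferase that modifies ribosomal RNA, rose 1.89-fold, with 9.31, 9.21 and 9.34 in CDK4/6 siRNA arrays, against 8.56, 8.45 and 8.11 in control arrays. The groups lay well apart in both genes, and control replicate 3 was the low one in each. RRP15, a factor for processing the large-subunit RNA, had 9.40, 9.38 and 9.53 in CDK4/6 siRNA arrays, against 8.65, 8.55 and 8.42 in control arrays. It rose 1.87-fold, and its further probe set gave a larger log2 change of 1.28 against 0.90.

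NIP7 is known for a role in processing the precursor RNA. It had 10.03, 9.99 and 10.16 in CDK4/6 siRNA arrays, against 9.24, 9.14 and 9.22 in control arrays, a 1.82-fold rise with the smallest limma adjusted p of this group (8.13e-05). URB1 is a large scaffold of the early particle in yeast. It had 7.95, 7.91 and 7.96 in CDK4/6 siRNA arrays, against 7.25, 7.22 and 6.78 in control arrays (log2 0.86, SE 0.12, limma adjusted p = 0.00078). Its call rests on that probe set, since its 2 dim ones gave 0.31 and -0.094. URB2, its partner in yeast, had 7.44, 7.76 and 7.66 in CDK4/6 siRNA arrays, against 6.9997, 6.97 and 6.61 in control arrays. It rose by 0.76 on the log2 scale.

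NOP2, which methylates a cytosine of the large-subunit RNA, had 8.33, 8.40 and 8.32 in CDK4/6 siRNA arrays, against 7.74, 7.66 and 7.46 in control arrays. It rose 1.66-fold (limma adjusted p = 0.000267). Further rises in this group were smaller. RRP1B rose by 0.56 on the log2 scale, its paralog RRP1 by 0.42, PPAN by 0.53 and BRIX1 by 0.46, the last a member of a family of RNA-binding factors that also holds PPAN, RPF1 and RPF2. RPF1 rose by 0.36, NOC3L by 0.32 and RSL1D1 by 0.26. With the mean of its probe sets, 2 of them dim, RPF1 lost its call at 0.13 (limma adjusted p = 0.0898).

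NOC2L, which pairs with NOC3L in a later nucleolar step although both were listed in this group, was the factor nearest the threshold. It had 8.16, 8.19 and 8.13 in CDK4/6 siRNA arrays, against 8.07, 7.91 and 7.73 in control arrays, so the groups did not overlap. Its log2 fold change was 0.26 with an interval of 0.064 to 0.45 (limma adjusted p = 0.0535). It passed under 6 alternatives, among them without control replicate 1 at 0.34 (limma adjusted p = 0.0142), and not under the others. With its probe sets averaged it was 0.15 (limma adjusted p = 0.171), and its further probe set gave 0.036 (limma adjusted p = 0.817 over all probe sets).

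Of 5 measured RNA helicases, ATPases that unwind or release RNA on the particle, 4 rose and 0 fell (14.2% and 13% of all probe sets). DDX56 and DDX21 each rose by 0.58 on the log2 scale, and DDX21 also acts in RNA polymerase I transcription. DDX51, known for releasing a small nucleolar RNA, rose 1.37-fold, and DDX55 rose 1.20-fold. Without CDK4/6 replicate 3 the call of DDX55 was lost at 0.23 (limma adjusted p = 0.0509). DDX54 had 7.90, 7.86 and 7.88 in CDK4/6 siRNA arrays, against 7.87, 7.80 and 7.79 in control arrays, and the groups overlap. Its log2 fold change was 0.063, with an interval of -0.059 to 0.18 and a limma adjusted p of 0.463. Its other probe sets gave 0.40 (limma adjusted p = 0.0508 over all probe sets) and 0.013, so the 3 disagree. A further probe set of DDX56 gave -0.13 and did not pass.

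All 3 measured GTPases rose, by small amounts, where 14.2% of all probe sets tested were called higher. GTPBP4, which acts with the early and middle particles, had 10.87, 11.16 and 10.95 in CDK4/6 siRNA arrays, against 10.71, 10.62 and 10.62 in control arrays, a 1.27-fold rise. Its 3 further probe sets gave larger log2 changes of 0.68, 0.49 and 0.49, and all 3 passed, the one at 0.68 naming IDI2 as well. GNL2, a GTPase of the particle on its way out of the nucleolus, rose 1.22-fold. GNL3L, a paralog of nucleostemin, rose 1.20-fold on its brightest probe set, and its 3 others gave 0.52, 0.24 and 0.35, of which the one at 0.24 did not pass.

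RRS1 and RPF2 bind each other and carry the 5S particle to the precursor, and their changes were unequal. RRS1 had 10.27, 10.34 and 10.35 in CDK4/6 siRNA arrays, against 9.14, 9.02 and 9.09 in control arrays. It rose 2.36-fold (log2 1.24, SE 0.058) with the smallest adjusted p of all 44 genes (limma adjusted p = 2.17e-05), and the control arrays lay close together. RPF2 rose 1.27-fold, with 11.05, 11.08 and 11.08 in CDK4/6 siRNA arrays, against 10.78, 10.74 and 10.64 in control arrays. The log2 ratio of RRS1 to RPF2, which has meaning only as a comparison between arrays, was -0.78, -0.74 and -0.74 in CDK4/6 siRNA arrays, against -1.65, -1.73 and -1.55 in control arrays. The groups did not overlap and differed by 0.89 (two-sided exact permutation p = 0.1, n = 3 each, the smallest possible), and this pair was chosen after its values were seen. Each gene had 1 probe set.

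Of the AAA ATPases and their partners 4 of 5 rose, where 14.2% of all probe sets tested were called higher. MDN1, midasin, a very large ATPase that pulls factors off the particle, rose 1.56-fold (SE 0.075 on the log2 scale), with 9.29, 9.19 and 9.23 in CDK4/6 siRNA arrays, against 8.65, 8.70 and 8.45 in control arrays. NLE1, a partner that midasin pulls on, rose 1.39-fold. WDR74, which the ATPase NVL releases, rose 1.32-fold. NVL itself rose 1.21-fold (limma adjusted p = 0.0362). Its call was the least stable, since the log2 fold change of 0.28 no longer passed without CDK4/6 replicate 1 (0.23), 2 (0.30) or 3 (0.29) and without control replicate 1 (0.30) or 3 (0.19). WDR18, a subunit of a complex around the protease SENP3, had 8.16, 8.07 and 8.19 in CDK4/6 siRNA arrays, against 8.09, 8.04 and 7.94 in control arrays. Those groups overlap, the log2 fold change was 0.12 with an interval of -0.029 to 0.26 (limma adjusted p = 0.238). With the spike-in scaling it was 0.22 and passed (limma adjusted p = 0.0257).

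Of 7 remaining factors, most of them later in the path, 5 rose, where 14.2% of all probe sets tested were called higher. MRTO4 had 10.11, 10.00 and 10.09 in CDK4/6 siRNA arrays, against 9.34, 9.25 and 9.01 in control arrays, a 1.82-fold rise that its further probe set matched at a log2 change of 0.86. LYAR, a nucleolar zinc finger protein, had 10.26, 10.28 and 10.21 in CDK4/6 siRNA arrays, against 9.72, 9.61 and 9.49 in control arrays. It rose 1.56-fold, and its further probe set gave the same log2 change of 0.64. SDAD1, whose yeast counterpart acts in export of the particle, rose 1.53-fold. GRWD1, which escorts the ribosomal protein uL3, rose 1.43-fold, and PA2G4, a factor bound at the peptide exit of the particle, rose 1.38-fold.

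The other 2 of these did not pass. NSA2, a factor of the late nucleolar particle in yeast, had 12.21, 12.25 and 12.21 in CDK4/6 siRNA arrays, against 12.13, 12.14 and 12.14 in control arrays. Those groups did not overlap, but the log2 fold change was 0.085 with an interval of -0.029 to 0.20 (limma adjusted p = 0.272). RSL24D1, which resembles a ribosomal protein and whose yeast counterpart is replaced by it in the cytoplasm, had 11.40, 11.57 and 11.59 in CDK4/6 siRNA arrays, against 11.58, 11.61 and 11.68 in control arrays. It was the sole gene of the 44 with a negative log2 fold change, -0.10, with an interval of -0.26 to 0.053 (limma adjusted p = 0.335), and its second probe set gave -0.12. With the spike-in scaling its change was 0.0053. The RefSeq gene table holds 7 pseudogenes with the name of NSA2 and 11 with that of RSL24D1. Among genes that rose it holds 6 for PA2G4, 4 for SDAD1, 3 each for NIP7 and WDR12, 2 each for NCL, PES1 and RPF2, and 1 each for BRIX1, DDX55, GNL2, GNL3L and LYAR. Signal from such copies cannot be told apart from that of these genes either.

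The further probe sets were a second reading of the same arrays. The 44 genes had 94 probe sets, of which 59 were called higher and 0 lower in a fit over all 54613 probe sets, where 8.86% were called higher. Of the 50 that did not stand for the gene, 22 rose, 28 did not pass and 0 fell. Below a mean level of 5.83, the level that 40% of genes fall under, 5 of 23 rose. At or above it 17 of 27 rose. Over all genes, too, the share called higher went from 14.2% to 26% when dim genes were left out. The contrast by level therefore cannot be read as a trait of these genes. Of 30 genes with several probe sets, 11 had all of them called higher. No standing probe set was below that level. Brighter probe sets that did not pass beside a called one were those of BOP1 and DDX56 given above, 1 of RRP1 (-0.038) and 1 of RRP1B (-0.11), so these 4 calls rest on 1 of the gene's probe sets. The dim ones that did not pass, beside those given above, gave 0.027 and 0.11 for DDX51, 0.17 and 0.12 for MDN1, and 0.15 for NCL. They gave -0.0083 and -0.060 for NOP16, 0.16 for TCOF1 and -0.11 for WDR74. The 2 dim probe sets of RPF1 gave 0.064 and -0.020.

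**Figure D2:**
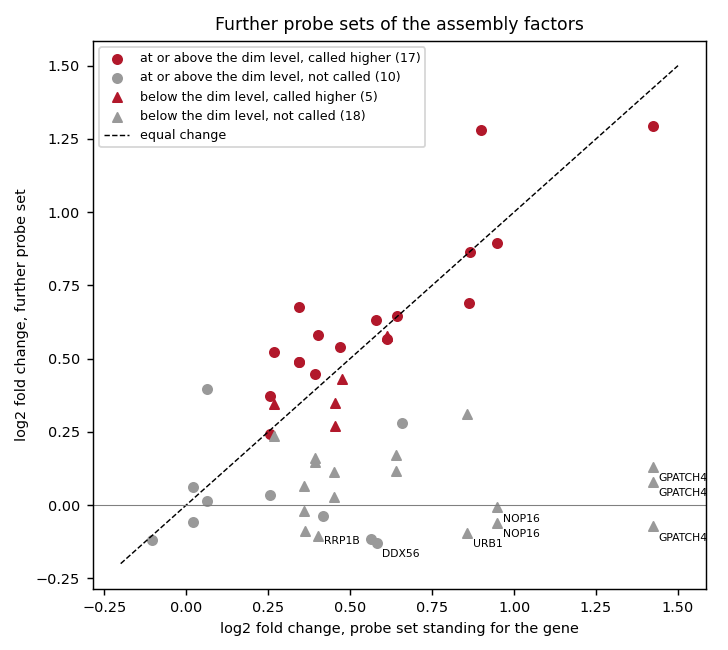
Each point is a further probe set of an assembly factor, with its log2 fold change (CDK4/6 siRNA minus control siRNA) on the vertical axis against that of the probe set standing for the gene on the horizontal axis. Triangles are probe sets with a mean level below 5.83, red marks a call higher and the dashed line marks equal change. Of the circles 17 were called higher, and the points near 0 at the right are dim probe sets of GPATCH4, NOP16 and URB1. Circles of DDX56 (-0.13), RRP1 (-0.038) and RRP1B (-0.11) also lie below 0, though the gene was called higher.

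Other genes of the path were listed from general knowledge. Of 35 other pre-60S factors 25 rose and 1 fell, with a median of 0.38, where 14.2% of all probe sets tested were called higher and 13% lower. LSG1, the GTPase that releases the export adaptor in the cytoplasm, rose 2.02-fold, with 9.50, 9.47 and 9.61 in CDK4/6 siRNA arrays, against 8.58, 8.56 and 8.39 in control arrays. CCDC86 rose by 0.91 on the log2 scale, NOL9, a polynucleotide kinase for precursor RNA, by 0.70, and MAK16 by 0.68. NOP53 was the 1 that fell, by 0.30 (limma adjusted p = 0.003), with 12.58, 12.56 and 12.55 in CDK4/6 siRNA arrays, against 12.83, 12.86 and 12.92 in control arrays. It is known as an adaptor that brings the RNA exosome to the particle. In the cytoplasmic steps EIF6, which keeps subunits apart, rose by 0.54 and SBDS, which helps remove it, by 0.47. Its partner EFL1 (0.16), the export adaptor NMD3 (0.11) and the exporter XPO1 (0.10) did not pass.

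Of 54 small subunit assembly factors 47 rose and 0 fell, with a median of 0.45, where 14.2% of all probe sets tested were called higher and 13% lower. They were led in adjusted p by PNO1 (1.11), UTP15 (0.99), UTP14A (0.88) and WDR3 (0.67). Of 42 measured ribosomal proteins of the large subunit 0 rose and 0 fell by limma, with a median of -0.024. In 13 of the 42 every CDK4/6 siRNA array lay below every control array (20.3% of all probe sets), and in 4 above (20.8% of all probe sets). At an unadjusted p under 0.05, 2 of the 42 were lower and 0 higher, where 3623 of all 20284 probe sets were lower and 3782 higher. The smallest adjusted p was that of RPL10 (-0.15, limma adjusted p = 0.0602). Differences between these lists were not tested. MYC itself had 12.49, 12.47 and 12.40 in CDK4/6 siRNA arrays, against 12.01, 12.12 and 11.98 in control arrays, a rise of 0.42 (SE 0.059, limma adjusted p = 0.00102).

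**Figure D3:**
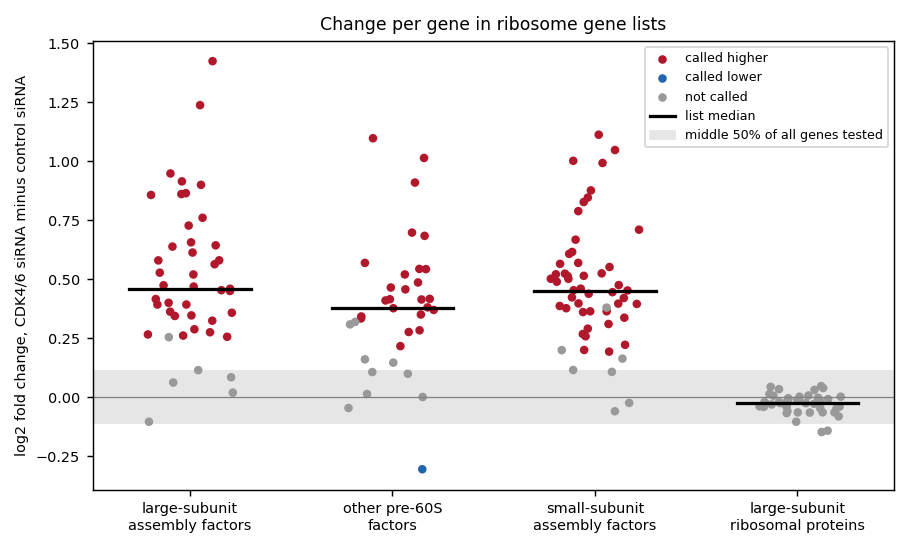
Each point is a gene's log2 fold change (CDK4/6 siRNA minus control siRNA), coloured by its limma call, with the list median as a bar and the middle 50% of all probe sets tested in grey (-0.11 to 0.11). The medians were 0.46 for large-subunit assembly factors, 0.38 for other pre-60S factors, 0.45 for small-subunit assembly factors and -0.024 for large-subunit ribosomal proteins. Whether changes are damped at the bright level of the ribosomal proteins was not tested.

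Within the assembly factors, the 11 genes with CACGTG in the promoter window had a median log2 fold change of 0.58 (10 of 11 called higher), and the 26 without it 0.43 (21 of 26 called higher). Among all probe sets tested 14.2% were called higher. The 16 genes with CCGGAAG had a median of 0.43 and the 21 without it 0.45. The ranges overlap throughout: genes with CACGTG ran from 0.063 in DDX54 to 0.86 in MRTO4, and those without from -0.10 in RSL24D1 to 1.42 in GPATCH4. These are descriptions of the letters in the printed windows, and no test was made on them.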

How the data were processed

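HCT116 expression was measured on 6 single-channel Affymetrix arrays. The authors deposited log2 values, and the submitters' processing notes name RMA (background correction, equal distributions across arrays, summary per probe set). Its version, and whether any probe sets were filtered, is not stated in those notes. RMA compresses changes of dim probe sets, and the number of arrays limits precision.

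The table holds 54675 probe sets, 62 of them controls. The platform annotation names 1 gene for 41097, several for 1801 and none for 11777. For each of 21357 symbols the brightest probe set naming it, alone or among several, stood for the gene, giving 20284 distinct probe sets with no filter. Symbols were checked by gene identifier against RefSeq (GRCh38.p14), and 0 needed an update.

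The difference CDK4/6 siRNA minus control was fitted in R 4.3.3 by limma 3.58.1 (lmFit, then eBayes), group as the only term, Benjamini-Hochberg adjustment over all 20284 probe sets and a threshold of 0.05. The members, lists and tests were chosen with earlier results of these data known. Values are given per array for the 12 largest changes and the 5 largest adjusted p of the set, and of each other list up to 4 genes with the smallest adjusted p and 2 called the other way are named; other members of those lists, and per-array values beyond these, were chosen after their values were seen. Alternatives were other probe set rules, scalings, variance models, a dim filter, the stricter threshold 0.01, and leaving out single arrays. On simulated data with these 20284 probe sets, 64% of 100 genes shifted by 0.5 on the log2 scale and 95% of 100 shifted by 1 were called, with 2 false among 161 calls. All shifts were upward, no other gene was shifted and the noise was independent between genes. In the data 27.2% of probe sets were called and arrays can share deviations. The simulated shares therefore do not give the power or the false calls of the real comparison. Figures used matplotlib 3.10.9.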

Additional observations from a re-analysis of the deposited data

How the results depend on the processing

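Over these alternatives 30 to 40 assembly factors rose and 0 fell, the lowest count where 36 genes had a probe set with a plain name. The share of probe sets standing for a gene that were called higher ran from 9.3% at a threshold of 0.01 to 26%. The latter is a share of the 12091 probe sets kept when dim genes were left out. With each array left out in turn 36 to 38 rose and 0 fell (11.4% to 13% of all probe sets rose), and the median ran from 0.40 to 0.49. The median moved to 0.34 with a gene's probe sets averaged and to 0.57 with the spike-in scaling. Same-numbered arrays did not deviate together (-0.0079, -0.12 and -0.0047, correlations of deviations from the group means; 0 arrays correlated best with their own number). With the replicate number as a block 39 rose, NOC2L being gained (limma adjusted p = 0.0463), and no other call changed. Signs turned for NPM1 with cyclic loess (-0.00074) and without CDK4/6 replicate 2 (-0.0053, against up to 0.054 with another array left out), RSL24D1 with the spike-in scaling (0.0053) and URB1 on its plain-name probe set (-0.094). NCL (0.15) and TCOF1 (0.16) also lost their calls on plain-name probe sets, which are dim ones. Without variance moderation DDX51, GTPBP4, NVL, PA2G4 and RRP1 lost theirs, and NSA2 passed. At 0.01, 34 rose. Causes were not tested. Signal near the floor limits the dim probe sets, and counts of members cannot be read as independent, since all rest on the same 6 arrays.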
